A study of Mus musculus with 11 samples.

Results

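Markers of the biliary epithelium and of the ductular reaction were examined in mouse liver RNA as a set of 9 genes, *Sox9*, *Epcam*, *Krt7*, *Krt19*, *Krt8*, *Krt18*, *Cd24a*, *Wfdc2* and *Vil1*. They were chosen by name, by matching the gene symbols of a table of 13669 genes, and 8 of the 9 were measured. *Vil1*, which encodes the microvillar actin-bundling protein villin, was not analysed here. *Wfdc2* was put in the set because it had been seen to be higher in the same comparison of these livers, so the differences of all members between the groups are given as a description, without p values. The set was 8 of the 13669 genes with values and 7 of the 13334 genes that had enough reads for a test.

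The samples were 11 livers of male wild-type C57BL/6J mice on regular chow. All 11 animals had received a recombinant adeno-associated virus. In 6 of them (AAV-TuD, numbered 3, 4, 5, 9, 10 and 11) it expressed a tough decoy, a hairpin RNA with a binding site for *miR-379* and another for *miR-541*, and in 5 (AAV-NC, numbered 1, 2, 6, 7 and 8) a negative control sequence. The vector used the LP1 promoter, which is active in hepatocytes, so the decoy was directed to hepatocytes whereas RNA was taken from whole liver. For its decoy studies in general, the study describes young adult mice that were injected in the tail vein, and killed after a fast of some hours, weeks to months later. The age and the time after the virus of each of these animals are not given in the sources used here. Libraries were made from 500 ng RNA with a kit that reads the 3′ end of each transcript, so that levels can be compared between genes without division by length. Levels are given as CPM, the reads of a gene per 1000000 reads of its library, after each library had been scaled by its TMM factor (from the trimmed mean of M values, which limits the weight of a few abundant genes).

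Cholangiocytes, the epithelial cells of the bile ducts, carry the simple-epithelium keratins K7 and K19 beside K8 and K18, the adhesion molecule EpCAM and the transcription factor SOX9, whereas normal hepatocytes carry K8 and K18 alone of these keratins. After many kinds of liver injury, small irregular ducts appear around the portal tracts, which is called the ductular reaction. Hepatocytes can also take up some of these markers, SOX9 among the first of them, without becoming duct cells. In RNA of a whole liver, fewer cells of a type and less RNA per cell cannot be told apart, and neither can the cell that carries a marker be seen.

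The decoy is directed against the following mature miRNAs, shown as RefSeq gives them with the seed, bases 2 to 8, in capitals, because the seed is what a target site would have to match.
miR-379-5p: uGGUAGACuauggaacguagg
miR-541-5p: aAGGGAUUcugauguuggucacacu
The DNA letters complementary to these seeds, GTCTACC and AATCCCT, were found in the longest annotated 3′ UTR of 5.72% and 9.51% of the 10935 tested genes with an annotated 3′ UTR, and in 0 of the 7 tested members. The seeds of 4 other miRNAs of the same cluster, *miR-382-5p*, *miR-134-5p*, *miR-409-3p* and *miR-410-3p*, had matches in 11.8%, 13.5%, 10.8% and 9.8% of genes and again in 0 tested members. Among the measured members, a single match was found, for *miR-409-3p* at base 1601 of the 2648 bases of the *Krt7* 3′ UTR, shown with 8 bases on each side and the match in capitals.
Krt7 site: accactctCAACATTcttacctt
Several of these 3′ UTRs were short. They had 66 bases in *Krt18*, 103 in *Krt19*, 177 in *Wfdc2*, 242 in *Krt8* and 660 in *Epcam*, against a median of 1392 over the tested genes, whereas those of *Cd24a* (1500) and *Sox9* (2250) were longer than that median. A match or its absence in these letters is a description of the window and says nothing on binding.

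*Krt8* and *Krt18*, whose proteins assemble with each other into the keratin filaments of hepatocytes, are neighbours on chromosome 15 of GRCm38. *Krt8* (101996698 to 102004482) is read from the minus strand and *Krt18* (102028180 to 102032027) from the plus strand, so that they point away from each other. Their starts lie 23698 bases apart. A non-coding gene read in the opposite direction to *Krt8*, *Gm36026* (102004212 to 102009442), overlaps the start of *Krt8* and reaches into this interval, and 0 annotated genes lie wholly within it. RefSeq promoters of 300 bases (250 before and 50 after the start) are printed for this pair, since both genes had higher levels with AAV-TuD and varied together between livers, and for *Wfdc2*, which had the largest difference of the members. Capitals mark matches, on either strand, to a set of short motifs, namely the TATA box TATAAA, the GC box GGGCGG, and the letters used for AP-1 (TGANTCA), TEAD (GGAATG), RBPJ (GTGGGAA), SOX (ACAATG) and HNF1 (given by name alone).
Krt8 promoter, chr15:102004293-102004592, minus strand: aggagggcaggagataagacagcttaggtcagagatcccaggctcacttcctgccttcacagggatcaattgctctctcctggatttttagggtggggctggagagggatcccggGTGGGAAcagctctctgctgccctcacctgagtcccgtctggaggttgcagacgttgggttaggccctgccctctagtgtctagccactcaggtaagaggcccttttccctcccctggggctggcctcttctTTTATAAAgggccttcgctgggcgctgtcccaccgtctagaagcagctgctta
Krt18 promoter, chr15:102027966-102028265, plus strand: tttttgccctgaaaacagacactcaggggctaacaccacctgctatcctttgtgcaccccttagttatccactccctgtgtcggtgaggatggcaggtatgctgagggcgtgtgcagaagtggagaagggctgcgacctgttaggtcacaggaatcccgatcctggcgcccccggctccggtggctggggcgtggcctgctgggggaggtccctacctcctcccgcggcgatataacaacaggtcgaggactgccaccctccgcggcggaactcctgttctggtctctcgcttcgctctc
Wfdc2 promoter, chr2:164562465-164562764, plus strand: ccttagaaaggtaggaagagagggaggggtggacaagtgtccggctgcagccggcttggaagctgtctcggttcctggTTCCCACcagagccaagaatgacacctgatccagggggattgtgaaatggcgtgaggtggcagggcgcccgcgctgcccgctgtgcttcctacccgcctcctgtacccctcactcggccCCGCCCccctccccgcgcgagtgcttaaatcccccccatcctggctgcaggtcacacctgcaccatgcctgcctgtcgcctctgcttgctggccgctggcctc
The *Krt8* window held the TATA box letters, which overlap on both strands, and 1 match to the RBPJ letters. In the *Wfdc2* window 1 GC box and 1 match to the RBPJ letters were found. The *Krt18* window held 0 matches to the searched motifs. Over 27025 mouse promoters of this length, 14.2% held the TATA letters, 35.9% the GC box and 6.39% the RBPJ letters. Promoters were given for 6 members, and the other windows, those of *Epcam*, *Krt7* and *Vil1*, held GC boxes only. The median GC content was 52.7% over all promoters, against 58.0% for *Krt8*, 61.3% for *Krt18* and 65.3% for *Wfdc2*.

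Library totals were 8148531 to 11971245 reads with AAV-NC and 8923726 to 12043959 with AAV-TuD. Transcripts of 40 major urinary protein (*Mup*) genes took 40.2% of the reads of AAV-NC 7, 32.3% of AAV-TuD 3 and 29.6% of AAV-TuD 5, and 8.58% to 19.5% of the other livers. The TMM factors ran from 0.667 in AAV-NC 7 to 1.24. Of 13334 genes tested with edgeR's quasi-likelihood test at a Benjamini-Hochberg adjusted p under 0.05, 1543 (11.6%) passed, 966 (7.24%) higher and 577 (4.33%) lower with AAV-TuD. No batch is named for these livers.

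**Figure D1:**
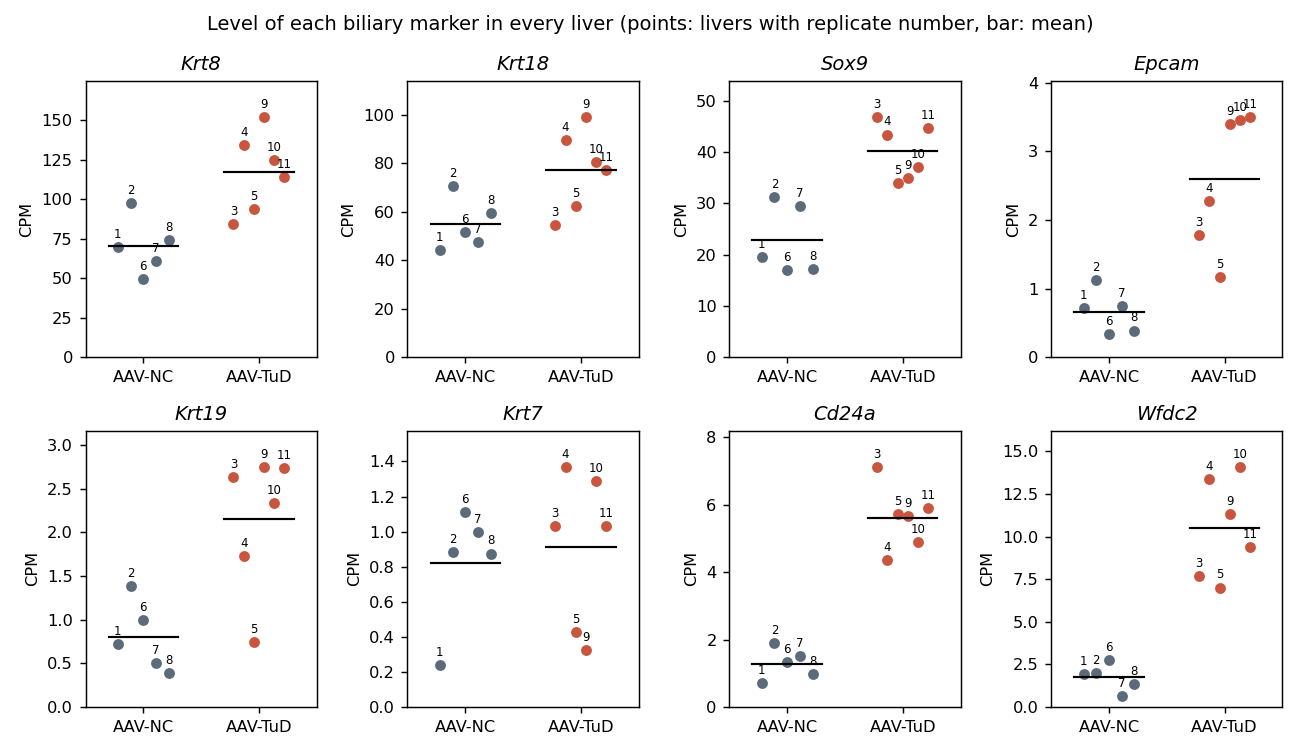
Level of each measured marker (vertical axis, TMM-scaled CPM on a linear axis from 0) in the 5 AAV-NC and 6 AAV-TuD livers. Each point is a liver with its replicate number and each bar a group mean. The points of the groups are separate for *Sox9*, *Epcam*, *Cd24a* and *Wfdc2* and overlap for *Krt8*, *Krt18*, *Krt19* and *Krt7*.

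All 7 tested members were past the threshold and higher with AAV-TuD, and 0 were lower, where 7.24% of all tested genes were higher. Nothing is read from that count, because this comparison was known when the set was made and because *Epcam*, and nearly so *Krt19*, had enough reads for the test only through the AAV-TuD livers. The levels of every AAV-TuD liver were above those of every AAV-NC liver for *Sox9*, *Epcam*, *Cd24a* and *Wfdc2*, a separation found in this direction for 4.11% of tested genes. The log2 fold changes ran from 0.50 for *Krt18* to 2.59 for *Wfdc2*. Leaving out AAV-NC 7, AAV-TuD 3 and AAV-TuD 5, the livers with most *Mup* reads, *Epcam* was no longer tested and the other 6 members were still past the threshold.

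*Wfdc2* encodes a secreted whey acidic protein domain protein of epithelia, also known as HE4. Its levels in AAV-NC livers 1, 2, 6, 7 and 8 were 1.91, 2.01, 2.77, 0.626 and 1.36 CPM, from 5 to 25 reads. With AAV-TuD the lowest level was 7.01, the median 10.4 and the highest 14.1 CPM, from 66 to 164 reads. The lowest AAV-TuD liver, number 5, was thus well above the highest AAV-NC liver, number 6, and the highest AAV-TuD levels were those of livers 10 and 4. Group means were 1.74 ± 0.797 CPM (SD, n = 5) and 10.5 ± 2.95 CPM (SD, n = 6), with a log2 fold change of 2.59 ± 0.28 (SE). It ranked 18 by log2 fold change among the 13334 genes tested, and this is the value for which it was chosen.

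*Cd24a* encodes a small surface glycoprotein anchored by a lipid, which is carried by cholangiocytes and progenitor cells and also by several blood cells. AAV-NC livers 1, 2, 6, 7 and 8 had 0.716, 1.89, 1.33, 1.5 and 0.973 CPM, from 6 to 15 reads. The AAV-TuD livers had a lowest level of 4.37, a median of 5.70 and a highest level of 7.13 CPM, from 48 to 76 reads. The groups did not overlap, and the highest level was that of AAV-TuD 3, a liver with many *Mup* reads. Its mean was 1.28 ± 0.456 CPM (SD, n = 5) with AAV-NC and 5.62 ± 0.943 CPM (SD, n = 6) with AAV-TuD, and the log2 fold change was 2.14 ± 0.22 (SE).

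*Epcam* encodes the epithelial cell adhesion molecule, which adult hepatocytes normally lack. It was rare in every library, with 0.716, 1.13, 0.332, 0.751 and 0.389 CPM in AAV-NC livers 1, 2, 6, 7 and 8, from 3 to 9 reads. Its AAV-TuD levels had a lowest value of 1.17, a median of 2.84 and a highest value of 3.50 CPM, from 11 to 42 reads. The groups only just separated, since AAV-TuD 5 lay next to AAV-NC 2, and AAV-TuD 9, 10 and 11 stood together at the top. More than 10 reads were present in 0 of the 5 AAV-NC and in all 6 AAV-TuD livers. The log2 fold change was 2.0 ± 0.37 (SE), between means of 0.664 ± 0.322 CPM (SD, n = 5) and 2.6 ± 1.0 CPM (SD, n = 6).

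*Krt19* encodes the type I keratin K19, the usual stain for bile ducts. AAV-NC livers 1, 2, 6, 7 and 8 had 0.716, 1.38, 0.996, 0.501 and 0.389 CPM, from 4 to 11 reads. The lowest AAV-TuD level was 0.743, the median 2.48 and the highest 2.75 CPM, from 7 to 34 reads. The groups overlapped, because AAV-TuD 5 with 7 reads fell among the AAV-NC livers, whereas the other 5 AAV-TuD livers were above all AAV-NC livers. The log2 fold change was 1.46 ± 0.37 (SE), with means of 0.797 ± 0.402 CPM (SD, n = 5) and 2.15 ± 0.790 CPM (SD, n = 6). Only 1 AAV-NC liver but 5 AAV-TuD livers had more than 10 reads.

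*Krt7* encodes K7, the type II keratin of bile ducts, and it did not have enough reads for the test. The levels in AAV-NC livers 1, 2, 6, 7 and 8 were 0.239, 0.881, 1.11, 1.0 and 0.875 CPM, from 2 to 10 reads. With AAV-TuD they had a lowest value of 0.324, a median of 1.03 and a highest value of 1.37 CPM, from 4 to 15 reads. The groups overlapped over most of their range, and AAV-TuD 9 and 5 were below all AAV-NC livers but number 1. The means were 0.821 ± 0.339 CPM (SD, n = 5) and 0.911 ± 0.439 CPM (SD, n = 6), and the log2 fold change without the filter on low counts was 0.15. A difference of the size seen for *Krt19* was not seen here, but at these few reads the ratio is poorly known.

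*Sox9* encodes the SRY-box transcription factor of the biliary lineage. AAV-NC livers 1, 2, 6, 7 and 8 had 19.5, 31.2, 17.0, 29.5 and 17.1 CPM, from 154 to 248 reads. Its lowest AAV-TuD level was 33.9, the median 40.3 and the highest 46.8 CPM, from 319 to 523 reads. The groups did not overlap, although AAV-NC 2 and 7 came close to AAV-TuD 5 and 9. From 22.9 ± 6.94 CPM (SD, n = 5) the mean went to 40.1 ± 5.53 CPM (SD, n = 6), a log2 fold change of 0.82 ± 0.16 (SE). The difference was thus smaller in fold than for *Epcam*, *Cd24a* or *Wfdc2*, at a much higher level in both groups.

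*Krt8* encodes K8, the type II keratin that hepatocytes share with duct cells. Its levels in AAV-NC livers 1, 2, 6, 7 and 8 were 69.8, 97.6, 49.7, 60.8 and 74.1 CPM. The AAV-TuD livers had a lowest level of 84.0, a median of 120 and a highest level of 152 CPM. AAV-TuD 3 and 5 were below AAV-NC 2, and the other 4 AAV-TuD livers were above all AAV-NC livers. The log2 fold change was 0.73 ± 0.17 (SE), between means of 70.4 ± 17.9 CPM (SD, n = 5) and 117 ± 25.3 CPM (SD, n = 6).

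*Krt18* encodes K18, the type I partner of K8. AAV-NC livers 1, 2, 6, 7 and 8 had 44.3, 70.5, 51.7, 47.6 and 59.5 CPM, and with AAV-TuD the lowest level was 54.3, the median 78.9 and the highest 99 CPM. The same AAV-TuD livers, 3 and 5, were below AAV-NC 2. Its log2 fold change of 0.50 ± 0.15 (SE), between 54.7 ± 10.5 CPM (SD, n = 5) and 77.2 ± 16.7 CPM (SD, n = 6), was the smallest of the tested members. With a liver left out it ran from 0.42 to 0.60 and was no longer past the threshold in 8 of the 11 fits, namely without AAV-NC 1, 6, 7 or 8 or without AAV-TuD 4, 9, 10 or 11. An annotated copy, *Gm5200*, matched the 3′ end of *Krt18* with 91.6% identity over 489 bases and was not analysed here, so reads of the gene and its copy may not be fully separate.

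The ratio of *Krt8* reads to *Krt18* reads varied less between the AAV-TuD livers than between the AAV-NC livers. AAV-NC livers 1, 2, 6, 7 and 8 had 1.58, 1.39, 0.961, 1.28 and 1.25 *Krt8* reads per *Krt18* read, a mean of 1.29 ± 0.224 (SD, n = 5). In the AAV-TuD livers the ratio had a mean of 1.52 ± 0.0302 (SD, n = 6) and lay between 1.48 and 1.55. AAV-NC 1 was above and the other AAV-NC livers were below all AAV-TuD livers. The SD of the ratio was thus smaller with AAV-TuD, a difference that was not tested. The counting error of these reads was not estimated, so the small SD is not read as a property of the livers.

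**Figure D2:**
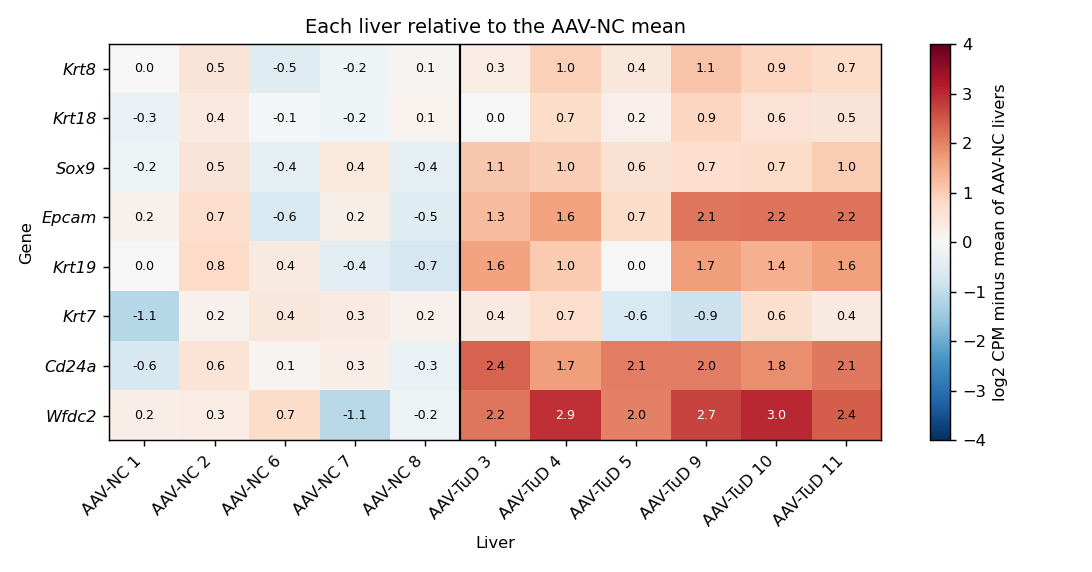
log2 CPM (prior count 2) of each marker (rows) in each liver (columns) minus the mean of the 5 AAV-NC livers, in colour and as numbers, with AAV-NC left and AAV-TuD right of the line. *Wfdc2* and *Cd24a* are above the AAV-NC mean by 1.68 or more in every AAV-TuD liver, *Krt8* and *Krt18* by 1.14 or less, and *Krt19* is near 0 in AAV-TuD 5.

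The order of the levels was nearly the same in both groups. With AAV-NC it ran from *Krt8* through *Krt18*, *Sox9*, *Wfdc2*, *Cd24a*, *Krt7* and *Krt19* to *Epcam*, and with AAV-TuD *Epcam* and *Krt19* came before *Krt7*. The levels of *Krt18*, *Sox9* and *Wfdc2* did not overlap from one to the next in either group. *Krt8* was above *Krt18* in 4 of 5 AAV-NC livers and in 6 of 6 AAV-TuD livers with overlapping ranges. The ranges of *Wfdc2*, *Cd24a*, *Krt7*, *Krt19* and *Epcam* overlapped from each to the next with AAV-NC. Within single AAV-NC livers, *Cd24a* was above *Krt7* in 5 of 5 and *Wfdc2* above *Cd24a* in 4 of 5, whereas *Krt7* was above *Krt19* in 3 and *Krt19* above *Epcam* in 2 of 5. With AAV-TuD, *Cd24a* was separate from *Epcam*, whereas *Epcam*, *Krt19* and *Krt7* overlapped in turn. *Krt8*, *Krt18* and *Sox9*, which hepatocytes can carry, thus had the 3 highest levels in both groups.

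Single livers stood apart across the members. AAV-NC 2 had the highest level of its group for 6 of the 7 tested members, all but *Wfdc2*. Among the AAV-TuD livers, number 5 had the lowest level for 4 members (*Sox9*, *Epcam*, *Krt19* and *Wfdc2*) and number 3 for 2 (*Krt8* and *Krt18*). Livers 4, 9, 10 and 11 were above all AAV-NC livers for all 7 tested members, whereas liver 3 was for 5 and liver 5 for 4. Livers 3 and 5 were also the AAV-TuD livers with most *Mup* reads, and the part of this in the lower levels was not tested.

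**Figure D3:**
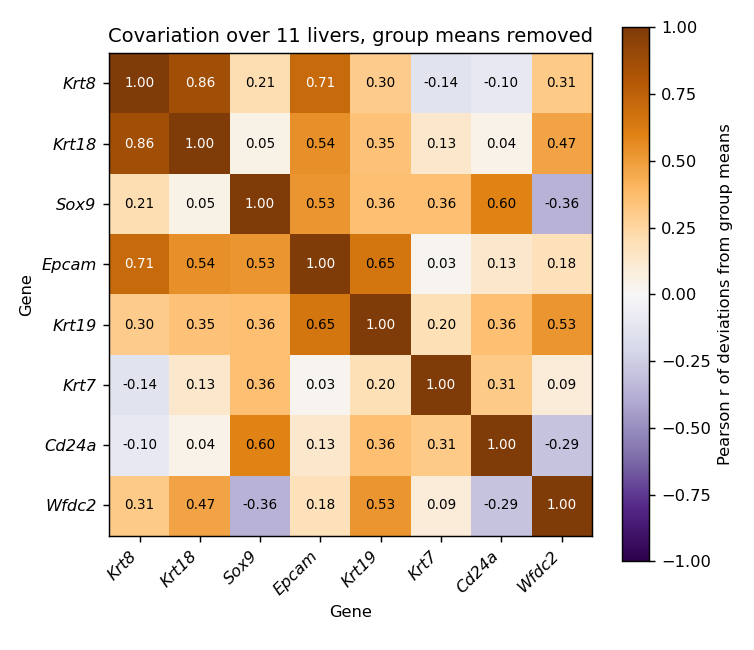
Pearson correlation between the markers, over 11 livers, of the deviations of log2 CPM from the group means. *Krt8* and *Krt18* have the highest value, 0.86, and *Sox9* and *Wfdc2* the lowest, -0.36.

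After the group means were removed, so that the difference between the groups no longer counted, the members varied together in part. These correlations are a description over 11 livers, which share libraries and scaling between all genes. Over the 21 pairs of tested members the mean Pearson r was 0.31 and the median 0.35, and 18 of the 21 were above 0. The partners *Krt8* and *Krt18* had the highest r, 0.86, and *Epcam* was most like *Krt8* (0.71). *Krt19* was most like *Epcam* (0.65), *Cd24a* and *Sox9* were most like each other (0.60) and *Wfdc2* was most like *Krt19* (0.53). *Wfdc2* ran against *Sox9* (-0.36) and *Cd24a* (-0.29), so that the set did not vary as 1 unit. Much of the likeness came from AAV-NC 2, without which the mean r was 0.10.

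Among the 8323 other genes whose mean was 50 reads or more, the gene most like the mean deviation of the tested members was *S100a11*, a calcium-binding protein of many epithelia and mesenchymal cells (r = 0.93, with the 99th percentile of all genes at 0.71). It had 6.02 ± 2.19 CPM (SD, n = 5) with AAV-NC and 18.4 ± 3.78 CPM (SD, n = 6) with AAV-TuD, a log2 fold change of 1.62 ± 0.20 (SE, adjusted p = 2.51e-04 in edgeR's quasi-likelihood test). The next were *Rabgap1* (0.90) and, each at 0.87, *Agrn*, *Acad8* and *Ubxn7*. These 4 had log2 fold changes between 0.10 and 0.16 and were not past the threshold. The mean deviation of the members was largest in AAV-NC 2 (1.41 SD) and AAV-TuD 5 (-1.1 SD). Whether these correlations hold without those livers was not tested.

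Other genes of the biliary epithelium were examined from a list of 38, of which 22 were tested. This list and those below were written with earlier results of these data known. Their counts and shares are therefore a description and no separate support for the members. Of these, 12 were higher with AAV-TuD (54.5%, against 7.24% of all genes), 1 was lower and 9 did not pass, and the median log2 fold change was 0.42, against 0.00 over all genes. For 2 of the 12, no AAV-NC liver had more than 10 reads. *Spp1*, which encodes osteopontin, a secreted phosphoprotein of duct cells and of macrophages, rose from 5.08 ± 1.93 CPM (SD, n = 5) to 23.1 ± 5.95 CPM (SD, n = 6), a log2 fold change of 2.20 ± 0.25 (SE, adjusted p = 1.18e-04 in edgeR). *Bicc1*, an RNA-binding protein needed for normal ducts and tubules, rose from 4.60 ± 2.33 to 14.9 ± 3.75 CPM (SD, log2 fold change 1.70, adjusted p = 0.00133 in edgeR). *Prom1*, the prominin of apical membranes that marks ductular progenitors, rose from 0.863 ± 0.253 to 2.76 ± 0.675 CPM (SD, log2 fold change 1.66, adjusted p = 0.00133 in edgeR). The levels of these 3 genes did not overlap between the groups.

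The other 9 higher genes of this list were *Lcn2*, *Krt23*, *Ddr1*, *Ehf*, *Pkhd1*, *Cd44*, *Tm4sf4*, *Cp* and *Cdh1*, with log2 fold changes from 2.28 for *Lcn2*, a secreted iron-carrier-binding protein, down to 0.39 for *Cdh1*, the E-cadherin that hepatocytes also carry. Of these, *Pkhd1*, which encodes the fibrocystin of primary cilia, had a log2 fold change of 1.09, and *Ehf*, an epithelial transcription factor, 1.57. *Atp1b1*, a subunit of the sodium pump, fell (log2 fold change -0.57), though 0 genes were lower with library size alone. From the 9 genes of the list that did not pass, the following were named after their values were seen. They were the water channel gene *Aqp1* (log2 fold change 0.13), the anion exchanger gene *Slc4a2* (0.20), *Anxa4* (0.06) and the apical bile acid transporter gene *Slc10a2* (-0.04). To these come *Sorbs2* (0.29), *Clu* (0.22), *Onecut2* (-0.20) and *Onecut1* (-1.46). *Onecut1* varied widely, with 36.4 ± 30.7 CPM (SD, n = 5) with AAV-NC and 13.2 ± 13.6 CPM (SD, n = 6) with AAV-TuD. Without AAV-TuD 9, 2 genes of the list were lower. With a liver left out, 10 to 12 were higher, and 10 without the 3 livers with most *Mup* reads. *Cftr*, *Sctr*, *Ggt1*, *Muc1* and *Cldn4*, also of this list, were not analysed here.

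**Figure D4:**
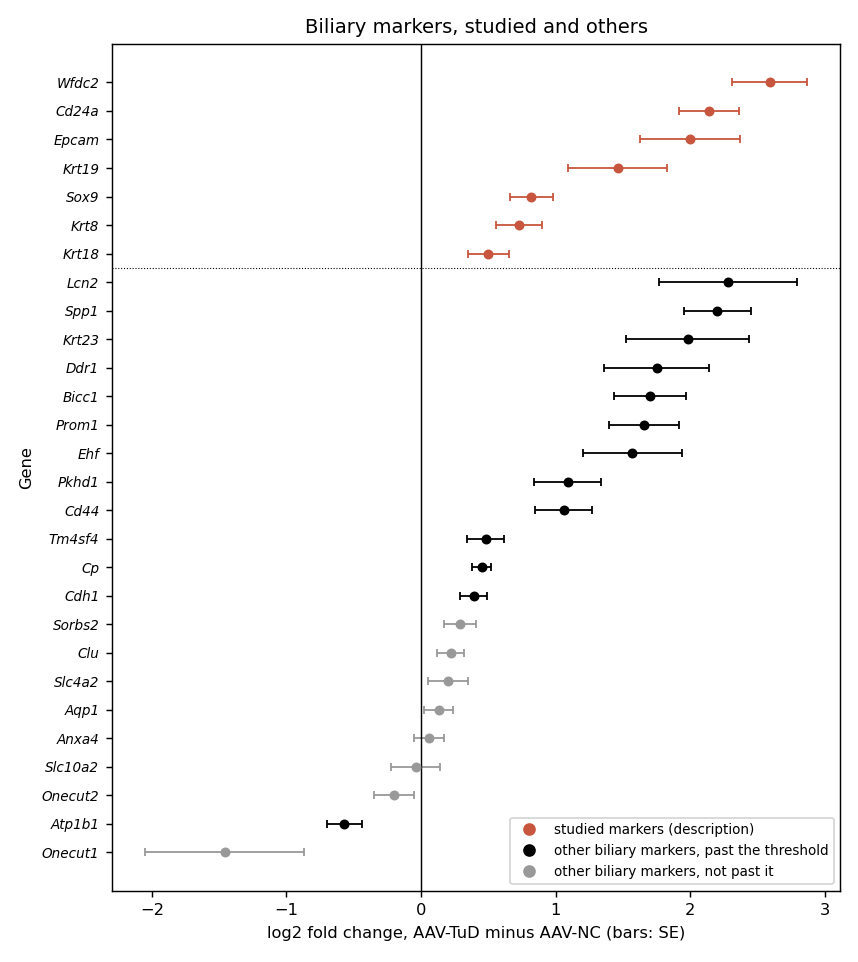
log2 fold change (horizontal axis, AAV-TuD minus AAV-NC, bars SE from edgeR) of the 7 tested markers above the dotted line and of 21 of the 22 other tested biliary genes below it. Black points are past the threshold and grey points are not. The studied markers lie between 0.50 and 2.59, and *Slc10a2*, *Anxa4* and *Aqp1* lie near 0. *Onecut1*, a grey point, lies at -1.46.

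Notch signaling, in which a membrane ligand on a neighbouring cell releases the receptor's intracellular domain to act with RBPJ, directs the biliary fate. Of 19 tested Notch pathway genes, 5 were higher (26.3%), 0 lower and 14 did not pass, with a median log2 fold change of 0.18. *Neurl1b*, a ubiquitin ligase for Notch ligands, rose from 2.17 ± 0.853 to 12.9 ± 5.40 CPM (SD, log2 fold change 2.54, adjusted p = 4.46e-04 in edgeR). *Rbpj* rose from 9.0 ± 0.281 to 13.7 ± 1.47 CPM (SD, log2 fold change 0.61, adjusted p = 0.00160 in edgeR), and *Dtx3* had a log2 fold change of 1.68. The other higher genes were *Heyl*, a Notch target (1.46), and *Adam10*, a protease that cleaves Notch receptors (0.42). The ligand gene *Jag1* (log2 fold change 0.37), the receptor gene *Notch2* (0.11) and another target gene, *Hes1* (0.19), did not pass. These 5 names were picked once their values were known. The list, *Neurl1b* included, was written with earlier results of these data known, so its count and p values are a description. The median of the list was 0.28 without AAV-NC 8.

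YAP and TAZ, the coactivators held back by the Hippo kinases, are also known for their part in duct cells. In this list of 23 tested genes, 5 were higher (21.7%), 1 was lower and 17 did not pass. The median was 0.15, and it was 0.06 without AAV-TuD 9 and 0.09 without AAV-NC 8. *Wwtr1*, which encodes TAZ, rose from 7.69 ± 1.70 to 16.1 ± 2.90 CPM (SD, log2 fold change 1.07, adjusted p = 9.36e-04 in edgeR). The targets *Axl* (log2 fold change 1.23) and *Ankrd1* (1.93) were higher without overlap of the groups, a separation found in this direction for 4.11% of tested genes. Other target genes, named after their values were seen, did not pass. Among them were *Ccn1* (1.14), *Ccn2* (0.81), *Ajuba* (0.20), *Nuak2* (-0.02), *Crim1* (-0.05) and *Amotl2* (-0.15). *Yap1* itself, named after its value was seen, had a log2 fold change of -0.04 and did not pass. The lower gene was *Nf2*, an upstream activator of the Hippo kinases, and its call was lost when AAV-NC 1, 2, 7 or 8 or AAV-TuD 4, 9, 10 or 11 was left out.

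Partners of villin in microvilli and partners of keratins in desmosomes were less often past the threshold than the biliary list in these counts, a difference that was not tested. Of 22 microvillus genes 4 were higher (18.2%) and 0 lower, with a median of 0.23 (1 was lower without AAV-TuD 3). *Pls1*, the plastin of brush borders, had 0.253 ± 0.254 CPM with AAV-NC and 3.80 ± 1.98 CPM with AAV-TuD (SD, adjusted p = 6.87e-04 in edgeR), and no AAV-NC liver had more than 10 reads of it. *Msn* and *Lcp1*, both also carried by blood cells, had log2 fold changes of 0.50 and 0.39. Of 17 keratin and desmosome genes 5 were higher (29.4%) and 0 lower, with a median of 0.42. The more abundant of the 5, with 20 or more reads on average, were *Dsc2* (log2 fold change 0.76), *Vim* (0.94) and *Fbf1* (0.81), and the rarer ones were *Krt23* (1.98) and *Pkp3* (0.99), named after their values were seen. The median was 0.20 without AAV-TuD 10, and the count fell to 3 without AAV-TuD 4, 5 or 9 or AAV-NC 7 and to 2 without AAV-TuD 10 or 11. With library size alone 7 microvillus genes were higher. Without the 3 livers with most *Mup* reads, 2 microvillus and 3 keratin partner genes were higher.

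Bile acids are made by hepatocytes and modified by duct cells. Among 29 tested genes of bile acid synthesis and transport, 2 were higher (6.90%) and 6 lower (20.7%, against 4.33% of all genes). The lower genes included *Cyp27a1*, a sterol hydroxylase (283 ± 26.2 to 209 ± 21.8 CPM, SD, log2 fold change -0.44, adjusted p = 0.00488 in edgeR). *Nr0b2*, the repressor SHP, and *Abcb4*, the canalicular phospholipid transporter, were higher (log2 fold changes 1.02 and 0.46). When only the library size was used for scaling, 5 were higher and 1 was lower, so the balance of this list depends on the scaling. Without AAV-TuD 3, 4 were higher.

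**Figure D5:**
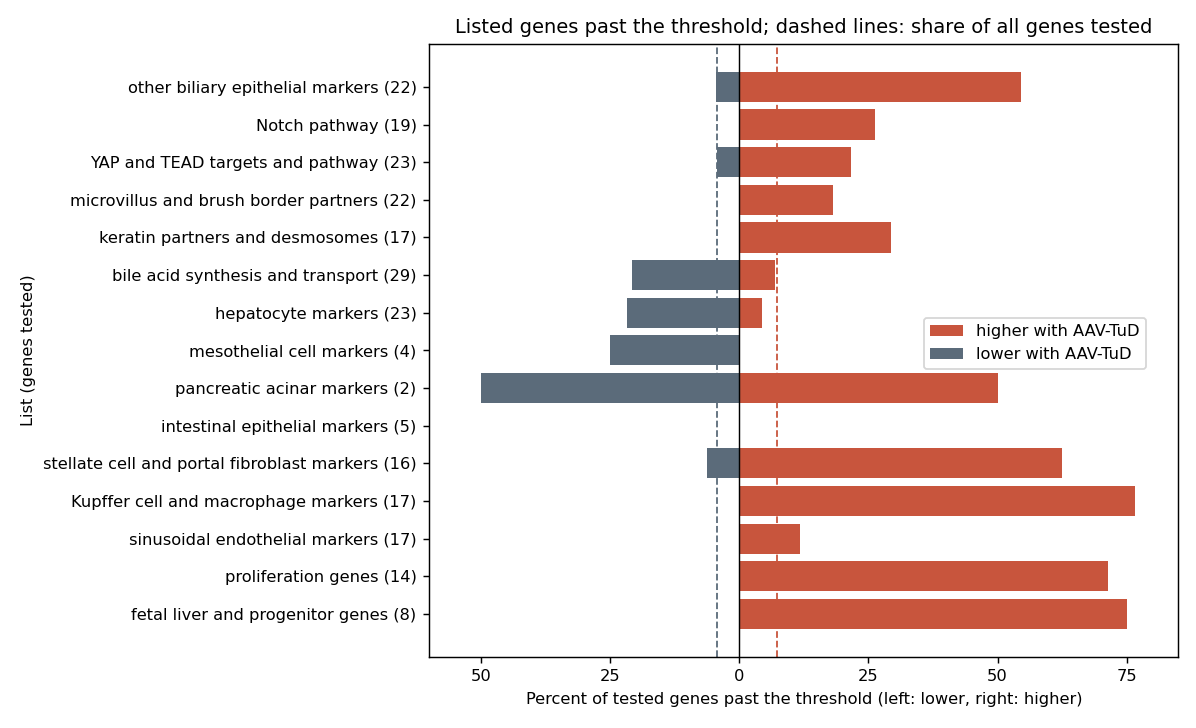
Percent of the tested genes of each list (number tested in parentheses) past the threshold, lower with AAV-TuD to the left and higher to the right of 0, with the shares of all genes tested, 4.33% and 7.24%, as dashed lines. The other biliary markers (54.5% higher) stand beside stellate cell (62.5%) and macrophage (76.5%) markers, and sinusoidal endothelial markers are at 11.8%.

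Markers of other liver cells moved in the same comparison, and their part in the biliary values was not tested. Stellate cell and portal fibroblast markers were higher for 10 of 16 tested genes and lower for 1, with a median of 0.98. Their summed level was 229 to 293 CPM with AAV-NC and 388 to 530 CPM with AAV-TuD, and *Col3a1*, a fibrillar collagen, had a log2 fold change of 1.91. Kupffer cell and macrophage markers were higher for 13 of 17 and lower for 0, with a median of 0.93 and sums of 164 to 239 and 220 to 545 CPM. *Spp1* stands in both the macrophage and the biliary list. The single lower gene of the stellate list was *Gas1* (log2 fold change -0.45, named after its value was seen). In 10 of the 20 alternatives, fits without a liver among them, 0 genes of this list were lower.

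Sinusoidal endothelial markers were near balance, with 2 of 17 higher, a median of 0.01 and sums of 481 to 540 and 511 to 570 CPM. The 2 genes were *Maf* and *Eng*, and their number was 0 without AAV-NC 6 or AAV-TuD 10 and 1 without AAV-NC 1, 2, 7 or 8 or AAV-TuD 4, 5 or 9. Hepatocyte markers were higher for 1 of 23 (*Cyp3a11*) and lower for 5, with a median of -0.17, and their sums were 48693 to 54882 and 54334 to 60859 CPM, so the list median and the sum, which rests on the most abundant genes, had opposite directions. With library size alone 0 of them were lower and their median was 0.07.

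Epithelia outside the liver share some of these markers and were listed too. Of 15 mesothelial markers, which share keratins with ducts, 4 were tested, 0 were higher and 1 (*Igfbp5*) was lower, a call lost without AAV-NC 1, 2, 7 or 8 or AAV-TuD 3, 4, 5, 10 or 11. Their sums were 12.1 to 13.9 and 10.8 to 15 CPM, and the defining genes *Msln*, *Upk3b* and *Wt1* were not analysed here. Of 18 pancreatic acinar markers 2 were tested, of which *Spink1* was higher (log2 fold change 2.76) and *Cela1* lower (-1.04), with sums of 21.3 to 60.6 and 15.9 to 25.8 CPM. Of 13 intestinal markers 5 were tested and 0 passed, with sums of 33.0 to 120 and 30.3 to 44.9 CPM. The most abundant of these, *Fabp2* and *Tff3*, had log2 fold changes of -0.26 and -1.52. *Tff3* varied widely, with 20.8 ± 39.1 CPM (SD, n = 5) with AAV-NC and 7.54 ± 5.1 CPM (SD, n = 6) with AAV-TuD. Its AAV-NC levels ran from 1.91 to 90.8 CPM, so the direction of its fold change is poorly known.

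Proliferation and fetal liver genes often accompany a ductular reaction and were listed for that reason. Of 14 proliferation genes 10 were higher and 0 lower, with a median of 1.73 and sums of 22.1 to 34.3 and 32.3 to 117 CPM. *Cdk1*, the kinase of mitotic entry, went from 1.04 ± 0.456 to 5.50 ± 2.43 CPM (SD, log2 fold change 2.36, adjusted p = 0.00219 in edgeR), and *Mcm5* and *Cenpf* had log2 fold changes of 1.67 and 2.25. Of 8 tested fetal liver and progenitor genes 6 were higher and 0 lower, with a median of 1.81. Beside *Prom1* they included *Cd44* (log2 fold change 1.06). The count also holds *Cdkn1a* (1.95), an inhibitor of cyclin-dependent kinases that is not in itself a fetal or progenitor marker. *Afp* (0.62) and *Lgr5* (-0.47), named after their values were seen, did not pass. With a liver left out, the median of the fetal liver and progenitor list ran from 1.3 to 1.87, and 4 to 6 of its genes were higher. For 2 of the higher genes in each of these lists and in the macrophage list, no AAV-NC liver had more than 10 reads.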

How the data were processed

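Liver RNA of 5 AAV-NC and 6 AAV-TuD mice, each a separate sample, was sequenced from the 3′ end. The authors trimmed the reads, aligned them to GRCm38 with STAR 2.5.3a (version per the submitters' processing notes) and deposited raw counts per gene. The annotation and strand setting are not given in the sources used here, and *Krt7* and *Krt8* overlap annotated genes on the other strand. The table held 13669 rows (140 without a symbol).

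A gene was tested where 5 or more livers each exceeded 10 reads, over the whole table, in edgeR 4.0.16 (quasi-likelihood, TMM, Benjamini-Hochberg adjusted p under 0.05; R 4.3.3). CPM used TMM-scaled library sizes, and log2 CPM for correlations a prior count of 2. At these depths 1 CPM is near the 10-read filter, so levels of that size carry large counting error. In simulated counts of this comparison (13081 genes, 200 changed), 76% of changes of 1 and 98% of changes of 2 on the log2 scale were recovered, and 3.87% of calls were false. Alternatives were DESeq2 1.42.0, other size factors and filters, limma 3.58.1 (voom), and livers left out.

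Members and lists were chosen with earlier results of these data known. Named were all members and, per list, the 3 genes with the smallest p among those past the threshold with a mean of at least 20 reads (where none passed, the 2 most abundant), and the 5 genes most like the members with a mean of at least 50 reads. Other names were chosen after their values were seen. Sequences came from RefSeq and positions from GENCODE on GRCm38. The values of 1 listed gene are not reported here, though the counts of its list include it.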

Additional observations from a re-analysis of the deposited data

Results flagged for a closer look

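Among the 20 groups of values examined (the levels of the 8 measured members, the *Mup* share and the *Krt8* to *Krt18* ratio in each of the groups), 2 held a liver far from the others of its group, where chance gives about 1 in 20. The *Krt7* level of AAV-NC 1, 0.239 CPM from 2 reads, was the lowest of its group, with a gap to the next liver of 0.734 of the group's range. The *Mup* share of AAV-NC 7, 40.2%, was the highest of its group, with a gap of 0.805 of the range.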

How the results depend on the processing

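Of the 7 tested members, 6 or 7 were higher and 0 lower in each of the 20 alternatives. *Krt18* was the only tested member to lose its call, in 8 of the fits without a liver. *Epcam* was not tested without the 3 livers with most *Mup* reads, by construction of the filter. The log2 fold changes of the members kept their sign in all alternatives and with library size alone ran from 0.75 for *Krt18* to 2.84 for *Wfdc2*, in a fit where the median of all genes was 0.23. That scaling moved the share of higher genes among all calls from 62.6% to 95.1%, with 71 genes lower in place of 577. The medians of the lists moved up with it, to 0.66 for other biliary and for keratin partner genes, 0.41 for Notch, 0.38 for YAP and TEAD and 0.44 for microvillus genes. Without single livers the number of lower genes ran from 338 (without AAV-TuD 4) to 720. Without AAV-TuD 10 it was 376, and the cause was not tested. The mean correlation between members within groups was 0.57 with library size alone, and with a liver left out it ran from 0.10 (without AAV-NC 2) to 0.37. No paired analysis was possible because no number is shared between the AAV-NC and the AAV-TuD livers. Depth limits *Krt7*, *Epcam* and *Krt19* most, at no more than 11 reads in each AAV-NC liver.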
